A study of Mus musculus with 11 samples.

Results

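Cholesterol and fatty acid metabolism was followed through 43 genes in liver CD4 T cells of mice with chemically induced liver fibrosis. The genes are a list of symbols whose rule uses no measured value, although earlier results of these data were known when it was drawn up, and they fall into regulators of sterol sensing (5 genes), sterol synthesis (15), sterol transport, esterification and the LXR receptor (5), fatty acid synthesis, elongation and desaturation (9), fatty acid activation (2) and fatty acid oxidation (7). All 43 symbols were found among the 56748 gene identifiers of the count table, and all 43 passed the filter on low counts, as did 17987 genes in all. The 6 Atg5-deficient libraries carry the genotype label ATG5TLymph-/-, a deletion in T lymphocytes of Atg5, which autophagosomes need to form. The 5 wild-type libraries carry the undeleted floxed allele (ATG5fl/fl). All mice had been given the liver toxin carbon tetrachloride (CCl4) over 5 weeks, which scars the liver, so there is no group without injury. The transgene that drives the deletion, the age and sex of the mice and whether each library came from a separate mouse are not stated in the sources at hand. The p-values therefore reflect no more than the spread between these libraries. The series describes cells sorted by flow cytometry, whereas the extraction protocol in the labels describes fixed, paraffin-embedded sections.

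Cells make cholesterol from acetyl-CoA through the mevalonate pathway, and make fatty acids from the same building block through acetyl-CoA carboxylase and fatty acid synthase. When membrane sterols are low, SCAP escorts the SREBP transcription factors out of the endoplasmic reticulum, and when sterols are plentiful INSIG proteins hold them back. LXR receptors respond to oxysterols and turn on sterol export. Activated T cells draw on both synthetic routes to build membranes as they divide, while fatty acid oxidation in mitochondria breaks acyl chains down for energy. Autophagy can feed that oxidation by degrading lipid droplets.

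The libraries held 30699408 to 47564440 counted reads. Atg5 itself stood at 15.2 to 22.5 CPM (counts relative to library size, scaled with TMM factors) in Atg5-deficient and at 13.4 to 21.1 CPM in wild-type libraries (log2 fold change 0.18, SE 0.14, edgeR adjusted p = 0.488). Which exons are deleted is not stated, and reads from the remaining exons still count, so the Atg5 count is no check of the genotype labels. Markers of CD4 T cells summed to 3048 to 4512 CPM in Atg5-deficient libraries and 2996 to 3364 CPM in wild-type ones, and 5 of 6 Atg5-deficient libraries (3507 to 4512 CPM) lay above every wild-type one, with replicate 3 the exception. The part of these markers in the results below was not tested. Of the 2 CD8 T cell markers, Cd8a had 0 to 6 reads in a library and Cd8b1 140 to 258 reads, or 3.99 to 6.25 CPM in Atg5-deficient against 4.48 to 6.55 CPM in wild-type libraries. Summed B cell markers stood at 146.1 to 274.2 CPM against 160.4 to 235.8 CPM, macrophage markers at 1.52 to 7.32 against 1.67 to 4.71 CPM, and stellate cell markers at 2.22 to 6.22 against 2.15 to 6.92 CPM, in Atg5-deficient against wild-type libraries. Liver endothelial markers stood at 120.3 to 196.6 against 123.7 to 223.1 CPM, and neutrophil markers reached at most 0.603 and 0.3995 CPM. A single gene made up most of the B cell and the endothelial sum. Ighm had 3608 to 10395 reads in a library, and the other B cell markers at most 283. Pecam1 had 4178 to 8103 reads, and the other endothelial markers at most 104. Dendritic cell markers were low, at 0.725 to 4.99 against 0.469 to 1.60 CPM. Atg5-deficient replicates 1, 2, 4 and 6 (2.94, 4.76, 2.51 and 4.99 CPM) lay above every wild-type library, and replicates 3 and 5 did not. Of the 4 NK cell markers, Eomes, which T cells can express too, made up most of the sum where it was highest, with 84.7 CPM in Atg5-deficient replicate 4, 25.7 CPM in replicate 3 and 5.83 to 13.1 CPM in the other 4 Atg5-deficient libraries, against 4.36 to 11.6 CPM in wild-type ones. The other 3 (Ncr1, Klrb1c and Klre1) had 25 to 156 reads together in Atg5-deficient and 118 to 357 reads in wild-type libraries. Hepatocyte markers differed widely between single libraries, and all 12 were counted in each of them (Alb with 939 to 24042 reads). They summed to 1008, 1061, 775.6, 60.8, 135.3 and 257.4 CPM in Atg5-deficient replicates 1 to 6, and to 86.7, 401.8, 617.8, 327.4 and 41.9 CPM in wild-type replicates 1 to 5. The means of 550 ± 451 CPM (SD, n = 6) and 295 ± 237 CPM (SD, n = 5) did not differ past the threshold (exact permutation test, two-sided, p = 0.277). Atg5-deficient replicate 3 stood apart in 2 ways that touch the genes described here. Its mean of 25 cell cycle genes was 3.58 on the log2 CPM scale, against 4.65 to 5.05 in the other Atg5-deficient and 3.41 to 4.004 in wild-type libraries. It also had the lowest level of all 11 libraries for 14 of the 43 genes, and the highest for 5. Atg5-deficient replicate 5 had the highest level for 18 of the 43 and the lowest for 3.

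The promoters of 3 genes, from sterol synthesis, fatty acid synthesis and fatty acid activation, are shown because promoters of SREBP targets are known to carry a sterol regulatory element, often near a CCAAT box that binds the factor NF-Y. They are the 250 bases before the start of each gene from RefSeq (GRCm38.p6), read 5′ to 3′ on the strand of the gene. Capitals mark the sterol regulatory element TCACNCCAC and the CCAAT box, or their reverse complements, where the letters of these motifs occur.
Hmgcs1 promoter, chr13:119690101-119690350, plus strand: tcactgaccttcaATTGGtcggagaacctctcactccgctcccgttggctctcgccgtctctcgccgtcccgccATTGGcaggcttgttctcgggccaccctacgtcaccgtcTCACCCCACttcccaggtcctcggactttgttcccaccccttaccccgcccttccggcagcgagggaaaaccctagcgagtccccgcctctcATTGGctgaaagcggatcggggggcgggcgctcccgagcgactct
Fasn promoter, chr11:120824548-120824797, minus strand: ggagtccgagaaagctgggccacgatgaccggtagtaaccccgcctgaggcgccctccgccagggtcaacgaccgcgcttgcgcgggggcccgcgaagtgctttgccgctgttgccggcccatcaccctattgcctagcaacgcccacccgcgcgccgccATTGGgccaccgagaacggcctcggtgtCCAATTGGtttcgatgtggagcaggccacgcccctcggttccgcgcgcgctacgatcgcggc
Acsl4 promoter, chrX:142390536-142390785, minus strand: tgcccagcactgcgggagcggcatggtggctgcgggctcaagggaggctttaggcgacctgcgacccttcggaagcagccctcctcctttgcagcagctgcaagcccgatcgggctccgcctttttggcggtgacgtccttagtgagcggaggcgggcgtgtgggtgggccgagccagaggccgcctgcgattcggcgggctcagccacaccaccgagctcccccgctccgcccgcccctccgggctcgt
The Hmgcs1 promoter holds the only sterol regulatory element with these letters among the members whose promoter window was matched, at position -137 from the start. RefSeq promoter windows of 250 bases before to 50 bases after the start were matched for 35 of the 43 members. Fdps, Fdft1, Sqle, Stard4, Abcg1, Scd1, Scd2 and Fads1 had no matched window and were not searched. TCACNCCAC on either strand was found in 1 of the 35, against 1.44% of 27025 genes with a window. CCAAT on either strand was found in 21 of the 35, against 41.1% of all genes. It occurred in 11 of 12 matched sterol synthesis genes, in 3 of 6 genes of fatty acid synthesis, and in 1 of 7 genes of fatty acid oxidation. The other classes had it in 4 of 5 regulators, 1 of 3 genes of sterol transport and 1 of 2 of fatty acid activation. A gene with several windows was counted if any of them held the letters. A match describes letters and not a bound site, and the CCAAT of the Fasn promoter overlaps its reverse complement.

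Few of the 43 genes differed between genotypes past the threshold. Scd2 and Acsl4 were higher in Atg5-deficient libraries (edgeR's quasi-likelihood test, adjusted p under 0.05 over 17987 genes), which is 2 of 43 genes or 4.65%, against 4.43% of all genes tested. Among the 43, 0 were lower, against 2.41% of all genes. DESeq2 called 2 of the 43 higher and 0 lower, against 7.76% and 5.23% of all genes. At an unadjusted p under 0.05, 7 members were higher, 16.3% against 12.7% of all genes, and 1 was lower, 2.33% against 10.6%. The share that edgeR called higher by the adjusted p is near the background. The log2 fold change was above 0 in 34 of the 43 (79.1%, median 0.09), against 49.7% of all genes (median -0.003). Under upper-quartile scaling, which moved the median of all genes to -0.07, it was above 0 in 25 of 43 (median 0.02). With the mean of the cell cycle list as a covariate it was above 0 in 14 of 43 (median -0.13). Of the 25 genes in that list 16 were higher in Atg5-deficient libraries (median log2 fold change 1.18). The mean of the list lay above every wild-type library in 5 of 6 Atg5-deficient ones, replicate 3 being the exception. The covariate thus moves with genotype, and the fit that uses it cannot separate genotype from the cell cycle genes.

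**Figure D1:**
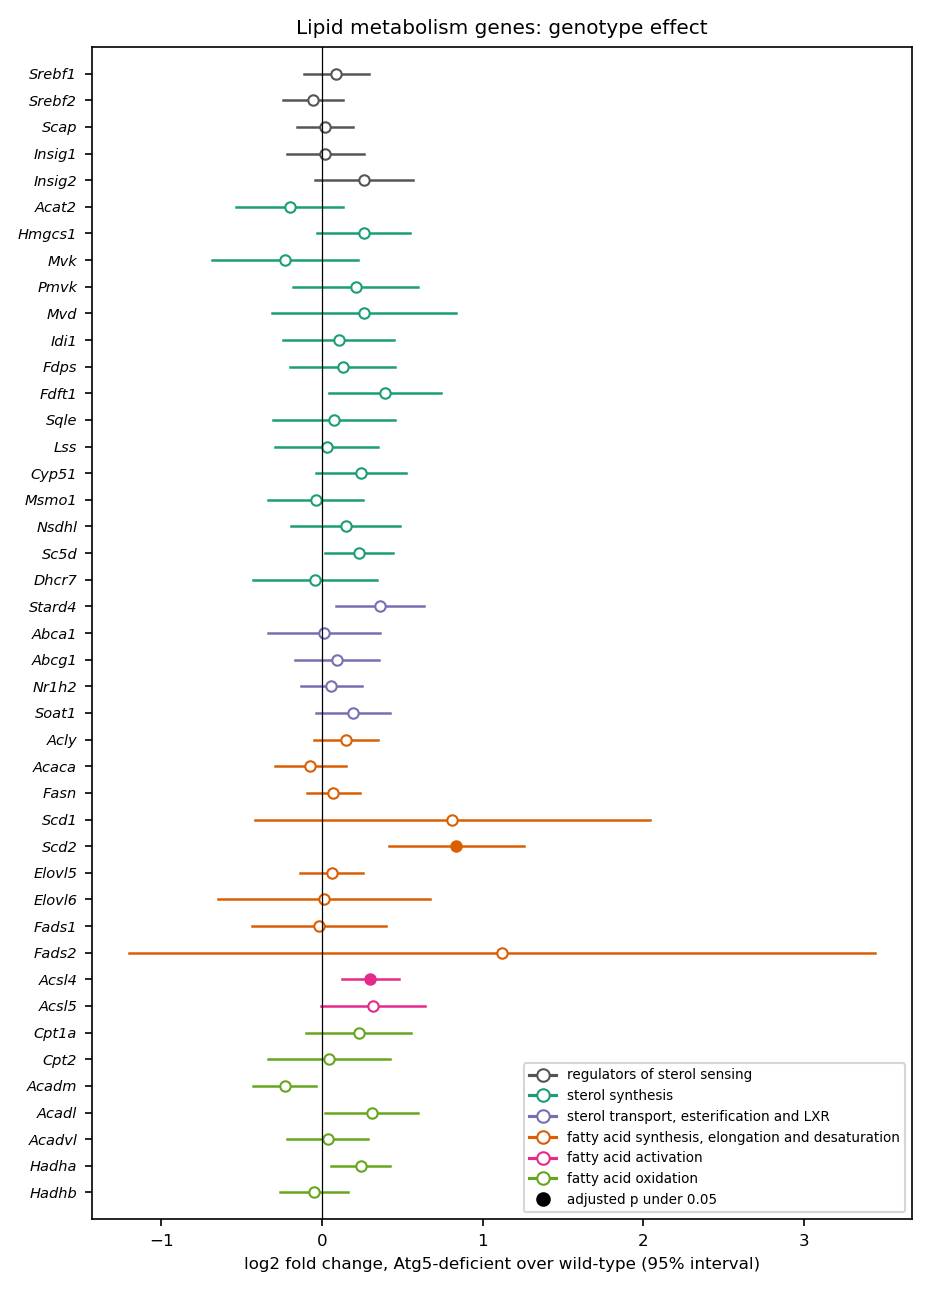
Log2 fold change of each of the 43 genes, Atg5-deficient over wild-type, with its 95% interval (edgeR, 6 and 5 libraries), in colours by functional class. Filled points mark an adjusted p under 0.05, which Scd2 (0.83) and Acsl4 (0.30) reached; the intervals of Scd1 and Fads2 are the widest.

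The regulators of sterol sensing showed no difference past the threshold in any of their 5 genes, and their log2 fold changes ran from -0.06 to 0.26. Srebf2, which encodes the SREBP that mainly drives sterol genes, had 199.5, 199.2, 179.4, 202.8, 221.3 and 215.7 CPM in Atg5-deficient libraries and 208.9, 240.9, 177.5, 205.3 and 223.2 CPM in wild-type ones. The groups overlapped throughout, and the 95% interval of the log2 difference was -0.24 to 0.13. Srebf1, whose products mainly drive fatty acid genes, had 77.8, 69.1, 71.5, 74.6, 84.2 and 69.6 CPM in Atg5-deficient libraries and 67.2, 82.9, 60.3, 62.5 and 77.4 CPM in wild-type ones (log2 fold change 0.09, interval -0.11 to 0.29). Scap, the SREBP escort, stood at 68.0 ± 6.81 CPM (SD, n = 6) in Atg5-deficient libraries and 67.3 ± 3.93 CPM (SD, n = 5) in wild-type ones. The 2 genes for retention proteins did not reach the threshold either. Insig1, itself an SREBP target, had 28.5, 26.6, 30.5, 23.0, 19.96 and 24.6 CPM in Atg5-deficient libraries and 26.3, 21.7, 24.9, 26.3 and 26.8 CPM in wild-type ones (log2 fold change 0.02, interval -0.22 to 0.26). Insig2 had 10.9, 11.6, 9.28, 11.4, 11.8 and 7.33 CPM in Atg5-deficient libraries and 9.02, 9.09, 8.69, 7.56 and 8.97 CPM in wild-type ones. It lay above every wild-type library in 5 of 6 Atg5-deficient ones and below all of them in replicate 6 (log2 fold change 0.26, SE 0.14, edgeR adjusted p = 0.288).

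In sterol synthesis, 0 of 15 genes passed the test in either direction, and the log2 fold changes ran from -0.23 (Mvk) to 0.39 (Fdft1), with 11 above and 4 below 0 and a median of 0.13. The first steps gave unlike values. Acat2, the cytosolic thiolase, which has a close paralog in Acat3 with which reads could be shared, had 5.95 ± 1.001 CPM in Atg5-deficient libraries and 6.84 ± 0.528 CPM in wild-type ones. Hmgcs1, the synthase of HMG-CoA whose promoter is shown above, had 30.05, 34.5, 24.4, 26.9, 38.9 and 33.8 CPM in Atg5-deficient libraries and 26.8, 23.6, 21.5, 26.3 and 33.1 CPM in wild-type ones. Its groups overlapped, with 3 of 6 Atg5-deficient libraries above every wild-type one (log2 fold change 0.26, interval -0.03 to 0.55, edgeR adjusted p = 0.269). The mevalonate kinase Mvk (4.54 against 5.34 CPM), the phosphomevalonate kinase Pmvk (7.89 against 6.84 CPM), the decarboxylase Mvd (8.64 against 7.22 CPM) and the isomerase Idi1 (7.40 against 6.88 CPM) are given as means of Atg5-deficient against wild-type libraries, and none passed.

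The enzymes that build and close the sterol skeleton were also below the threshold. Fdps, which makes farnesyl diphosphate, had 22.99 ± 5.61 CPM in Atg5-deficient libraries and 21.0 ± 3.04 CPM in wild-type ones. It shares 1124 exonic bases on the same strand with the predicted gene Gm43738, which had 15482 reads in all against 9098 for Fdps, so its count depends on how shared reads were assigned. Fdft1, the squalene synthase at the branch point to sterols, had 25.2, 33.7, 16.9, 30.9, 30.2 and 21.8 CPM in Atg5-deficient libraries and 19.6, 19.4, 16.4, 21.4 and 24.1 CPM in wild-type ones. Of the Atg5-deficient libraries 4 of 6 lay above every wild-type one, and replicate 3 was the lowest of them (log2 fold change 0.39, SE 0.16, interval 0.04 to 0.74, edgeR adjusted p = 0.162). Without replicate 3 the log2 fold change of Fdft1 was 0.49 (edgeR adjusted p = 0.0275). Fdft1 was called in that 1 of 11 fits that left out a library, with edgeR adjusted p up to 0.307 in the others. Fdft1 shares 774 exonic bases with Ctsb on the other strand, and the strand setting of the counting is not given. Sqle, the squalene epoxidase, had 12.2, 14.4, 7.48, 12.9, 14.4 and 12.9 CPM in Atg5-deficient libraries and 10.9, 12.7, 8.37, 12.2 and 14.6 CPM in wild-type ones. No Atg5-deficient library exceeded the highest wild-type one (log2 fold change 0.07, interval -0.30 to 0.45).

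The later sterol enzymes had small differences in both directions. The cyclase Lss had 13.4 against 13.2 CPM, the demethylase Cyp51 21.7 against 18.4 CPM, Msmo1 11.7 against 12.0 CPM and Nsdhl 8.75 against 7.90 CPM, as means of Atg5-deficient against wild-type libraries. Sc5d, the sterol desaturase, had 25.7 ± 2.93 CPM in Atg5-deficient libraries and 21.9 ± 1.47 CPM in wild-type ones (log2 fold change 0.23, SE 0.10, edgeR adjusted p = 0.172). Dhcr7, which completes cholesterol by reducing 7-dehydrocholesterol, had 13.9, 13.4, 7.89, 17.1, 17.7 and 13.8 CPM in Atg5-deficient libraries and 15.5, 17.4, 12.2, 12.1 and 15.2 CPM in wild-type ones. The groups overlapped, with replicate 3 the lowest of all (log2 fold change -0.05, interval -0.43 to 0.34). Dhcr7 was lower past the threshold with the cell cycle list as a covariate (log2 fold change -0.76, edgeR adjusted p = 0.0494). That fit called 0.984% of all genes lower, and in it 14 of the 15 sterol genes were below 0 and 10 had changed sign. The covariate moves with genotype, so the fit cannot separate genotype from the cell cycle genes.

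The level of the sterol genes as a class varied more among libraries of a genotype than between genotypes. Their mean log2 CPM was 3.66, 3.68, 3.30, 3.61, 3.90 and 3.69 in Atg5-deficient and 3.57, 3.64, 3.37, 3.47 and 3.71 in wild-type libraries. Atg5-deficient replicate 3 was the lowest library for 7 of the 15 genes and wild-type replicate 3 for 4, while Atg5-deficient replicate 5 was the highest for 6. These 3 libraries are also the ones with the lowest Atg5-deficient, the lowest wild-type and the highest mean of the cell cycle genes (3.58, 3.41 and 5.05 on the log2 CPM scale). The part of cell cycle genes in these levels was not tested. Without Atg5-deficient replicate 3 the range of the sterol mean in that genotype was 3.61 to 3.90, and 13 of 15 genes had a log2 fold change above 0 (median 0.19).

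**Figure D2:**
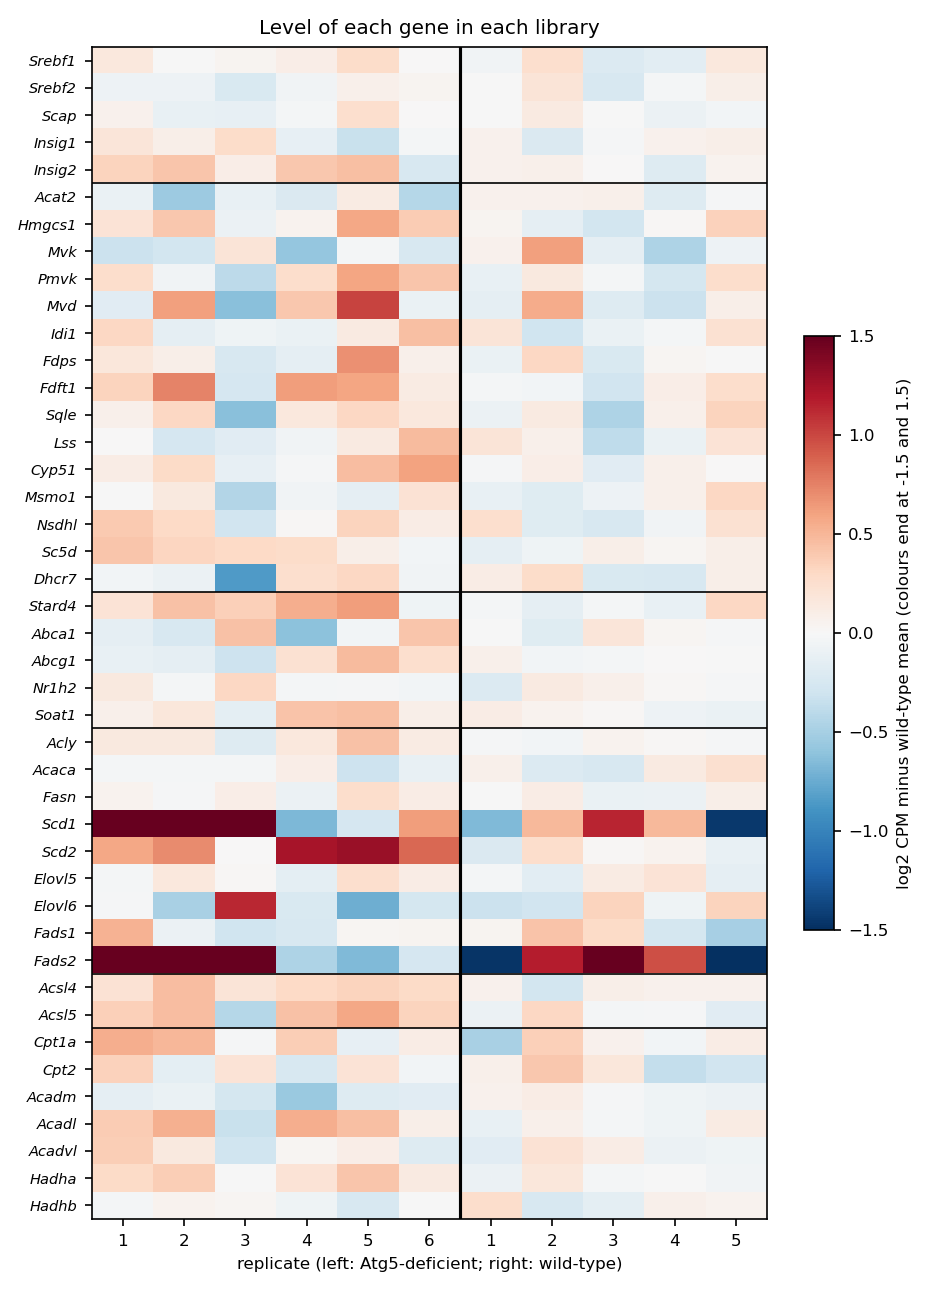
Level of each of the 43 genes in each library as log2 CPM minus the wild-type mean of that gene, with rows in functional order, divided by lines between classes, and Atg5-deficient libraries left of wild-type ones. Atg5-deficient replicate 3 is pale to blue for most sterol synthesis genes and replicate 5 red, and the rows of Scd1 and Fads2 vary most.

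For sterol transport, esterification and LXR, 0 of 5 genes passed and all 5 log2 fold changes were above 0 (0.01 to 0.36). Stard4, a carrier that moves sterol between membranes, had 23.7, 27.9, 26.2, 29.97, 31.7 and 19.6 CPM in Atg5-deficient libraries and 20.02, 18.6, 20.1, 18.96 and 25.4 CPM in wild-type ones. Atg5-deficient libraries exceeded every wild-type library in 4 of 6 cases (log2 fold change 0.36, SE 0.13, interval 0.09 to 0.64, edgeR adjusted p = 0.0996). Without Atg5-deficient replicate 6, the lowest, it was 0.44 (edgeR adjusted p = 0.0363). Stard4 was called in that 1 of 11 fits that left out a library, with edgeR adjusted p up to 0.192 in the others. The exporter genes, both classical LXR targets, spread more widely among Atg5-deficient libraries. Abca1 had 47.1, 43.7, 69.9, 33.8, 49.997 and 68.9 CPM in Atg5-deficient libraries and 51.6, 45.3, 58.6, 52.6 and 50.8 CPM in wild-type ones, so that 2 of 6 lay above and 2 of 6 below every wild-type library. Abcg1 had 117.2, 115.3, 101.6, 148.5, 175.3 and 150.8 CPM in Atg5-deficient libraries and 133.4, 123.1, 123.8, 126.8 and 125.99 CPM in wild-type ones, with 3 above and 3 below. Their mean log2 differences were 0.01 (interval -0.34 to 0.36) for Abca1 and 0.09 (interval -0.17 to 0.35) for Abcg1. The spread of the 2 groups was not compared by a test. Nr1h2, which encodes LXR beta, had 117.9 ± 12.4 CPM in Atg5-deficient libraries and 113.3 ± 9.83 CPM in wild-type ones, and Soat1, which esterifies cholesterol for storage, 42.2 ± 6.65 CPM and 36.99 ± 2.25 CPM.

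In fatty acid synthesis, elongation and desaturation, 1 of 9 genes was higher, 0 were lower, and the median log2 fold change was 0.07. The gene that passed was Scd2 (ENSMUSG00000025203, chromosome 19, 44293674 to 44306864, plus strand, GRCm38), a stearoyl-CoA desaturase that makes monounsaturated fatty acids. It had 61.7, 67.8, 41.7, 97.3, 101.5 and 74.97 CPM in Atg5-deficient libraries and 35.5, 49.4, 41.8, 43.03 and 38.2 CPM in wild-type ones. Of the Atg5-deficient libraries 5 of 6 lay above every wild-type one, and replicate 3 lay among them. The means were 74.2 ± 22.5 CPM (SD, n = 6) and 41.6 ± 5.30 CPM (SD, n = 5), with a log2 fold change of 0.83 (SE 0.19, interval 0.42 to 1.25, edgeR adjusted p = 0.0249). The call was kept in 8 of 11 fits that left out a library, and lost without wild-type replicate 1, 4 or 5 (adjusted p = 0.0632, 0.0504 and 0.0620). With the cell cycle list as a covariate the log2 fold change was 0.14 (edgeR adjusted p = 0.753), in a fit that cannot separate genotype from the cell cycle genes. The call was also lost with no low-count filter (adjusted p = 0.107) and in the 8 libraries whose titles run in sequence (adjusted p = 0.188). Scd2 has a close paralog in Scd1, with which reads could be shared, and its exons contain the microRNA gene Mir5114.

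The core enzymes of synthesis did not pass. Acly, which makes acetyl-CoA from citrate, had 216.7 ± 30.1 CPM in Atg5-deficient libraries and 195.7 ± 5.26 CPM in wild-type ones, above every wild-type library in 5 of 6 (log2 fold change 0.15, edgeR adjusted p = 0.371). Acaca, the carboxylase that commits acetyl-CoA to fatty acids, had 38.98, 39.2, 39.2, 42.9, 32.2 and 36.9 CPM in Atg5-deficient libraries and 41.9, 34.6, 33.9, 43.6 and 46.97 CPM in wild-type ones (log2 fold change -0.07, interval -0.30 to 0.15). Fasn, the synthase whose promoter is shown above, had 195.3, 186.4, 202.0, 176.7, 225.5 and 203.9 CPM in Atg5-deficient libraries and 187.6, 203.2, 176.6, 176.9 and 200.1 CPM in wild-type ones (log2 fold change 0.07, interval -0.10 to 0.24). The intervals of Acaca and Fasn are narrow enough to leave out a change of the size found for Scd2. The elongase Elovl5 had 114.8 ± 11.3 CPM against 110.2 ± 12.1 CPM. Elovl6, which lengthens palmitate to stearate, had 11.2 to 18.4 CPM in 5 Atg5-deficient libraries and 40.8 CPM in replicate 3, against 14.9 to 23.5 CPM in wild-type libraries. Fads1, the delta-5 desaturase, had 8.61 ± 1.92 CPM against 8.73 ± 2.25 CPM, in Atg5-deficient against wild-type libraries.

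Scd1 and Fads2 had large and unsure differences. Scd1, the stearoyl-CoA desaturase that dominates in liver, had 20.1, 22.0, 25.1, 4.35, 5.85 and 10.8 CPM in Atg5-deficient libraries and 4.39, 9.80, 15.4, 9.78 and 2.52 CPM in wild-type ones (log2 fold change 0.81, SE 0.56, edgeR adjusted p = 0.426). Fads2, the delta-6 desaturase, had 2.16, 4.57, 3.05, 0.265, 0.222 and 0.315 CPM in Atg5-deficient libraries and 0.105, 0.935, 2.20, 0.798 and 0 CPM in wild-type ones (log2 fold change 1.12, SE 1.06, edgeR adjusted p = 0.576). The count of 0 in wild-type replicate 5 allows up to 0.0783 CPM (3 reads, counting error only). The libraries that were high for either gene in each genotype were those with high hepatocyte markers. Over the 11 libraries, log2 CPM of Scd1 followed the log2 sum of 12 hepatocyte markers with Pearson's r = 0.979 and Spearman's rho = 0.945, and Fads2 with r = 0.952 and rho = 0.945. Both r had an unadjusted p of 1e-05 by permutation, the smallest that 100000 permutations can give, and an adjusted p of 0.000215 over the 43 genes (rho: adjusted p = 0.00194 for both by permutation). Without the 2 libraries farthest from the median of the marker sum, r was 0.967 for Scd1 and 0.973 for Fads2, and within the 6 Atg5-deficient libraries 0.979 and 0.916. The 5 wild-type libraries are too few for a value of their own. The relation of the other 41 genes over the 11 libraries did not pass, and r was -0.07 for Scd2 and 0.10 for Acsl4. Within the 6 Atg5-deficient libraries r was -0.79 for Scd2 and -0.01 for Acsl4, which was not tested. Scd2 was thus lower where hepatocyte markers were high in that genotype, which the value over all libraries does not show. With the marker sum as a covariate, the log2 fold change was 0.29 for Scd1, 0.29 for Fads2, 0.87 for Scd2 and 0.31 for Acsl4. In bulk RNA, more cells of a type and more RNA per cell cannot be told apart.

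**Figure D3:**
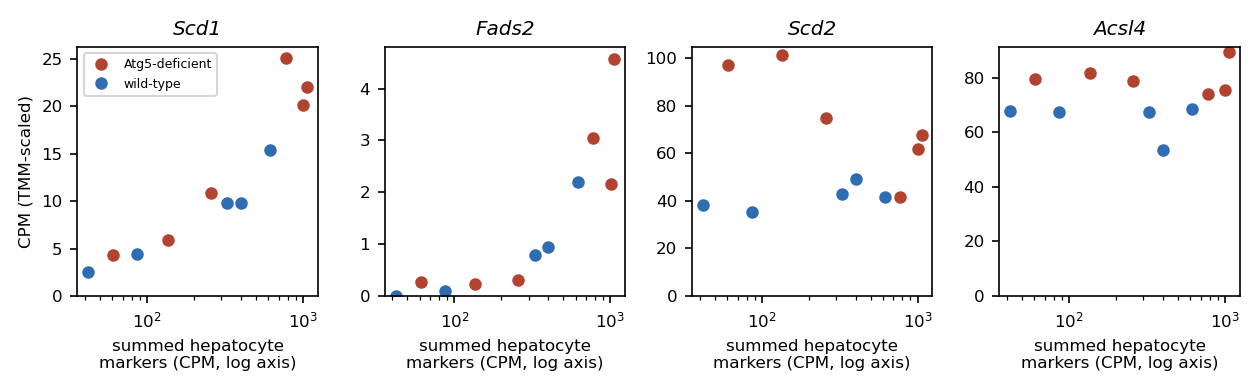
CPM of Scd1, Fads2, Scd2 and Acsl4 (linear axes from 0) against the summed CPM of 12 hepatocyte markers (log axis), with a point for each of 6 Atg5-deficient and 5 wild-type libraries. Scd1 and Fads2 climb along the axis in both genotypes (r = 0.979 and 0.952 on log2 values over all libraries). Scd2 and Acsl4 do not (r = -0.07 and 0.10), and r was -0.79 for Scd2 within Atg5-deficient libraries.

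Fatty acid activation, the joining of fatty acids to coenzyme A before they are used, was represented by 2 long-chain acyl-CoA synthetase genes, of which 1 was higher. Acsl4 (ENSMUSG00000031278, chromosome X, 142317993 to 142390535, minus strand, GRCm38) prefers polyunsaturated fatty acids such as arachidonate and is known to drive ferroptosis, a lipid-peroxide-driven form of cell death. It had 75.4, 89.5, 74.2, 79.7, 81.7 and 78.6 CPM in Atg5-deficient libraries and 67.4, 53.5, 68.4, 67.4 and 67.9 CPM in wild-type ones. Every Atg5-deficient library lay above every wild-type one, which held for Acsl4 alone among the 43 genes (2.33%), against 2.78% of all genes tested. The means were 79.8 ± 5.47 CPM (SD, n = 6) and 64.9 ± 6.38 CPM (SD, n = 5), a log2 fold change of 0.30 (SE 0.08, interval 0.12 to 0.48, edgeR adjusted p = 0.0456). The call was kept in 1 of 11 fits that left out a library, with adjusted p from 0.0242 to 0.0978 and log2 fold changes from 0.24 to 0.32. Upper-quartile scaling gave 0.23 (edgeR adjusted p = 0.1003), and the call was also lost with no low-count filter (0.104), the cell cycle covariate (0.278) and the 8 libraries whose titles run in sequence (0.139).

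Acsl5, a synthetase of the endoplasmic reticulum and mitochondria, had 85.6, 91.5, 49.4, 90.5, 99.8 and 83.7 CPM in Atg5-deficient libraries and 62.6, 82.4, 65.5, 65.6 and 58.99 CPM in wild-type ones. Of the Atg5-deficient libraries 5 of 6 lay above every wild-type one and replicate 3 below all of them (log2 fold change 0.32, SE 0.15, edgeR adjusted p = 0.222). Acsl5 was called in 1 of 11 fits that left out a library, with edgeR adjusted p up to 0.388 in the others. In that fit, without replicate 3, the value for Acsl5 was 0.43 (edgeR adjusted p = 0.00948). That fit called 6 of the 43 genes higher, against 7.96% of all genes in it: Scd2, Acsl4, Acsl5, Fdft1, Acadl and Hadha. Limma-voom with sample quality weights called the same 6, against 10.9% of all genes, and DESeq2 on all libraries called Scd2 and Acsl4 only, against 7.76%. Acsl5 shares 404 exonic bases with Zdhhc6 on the other strand.

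**Figure D4:**
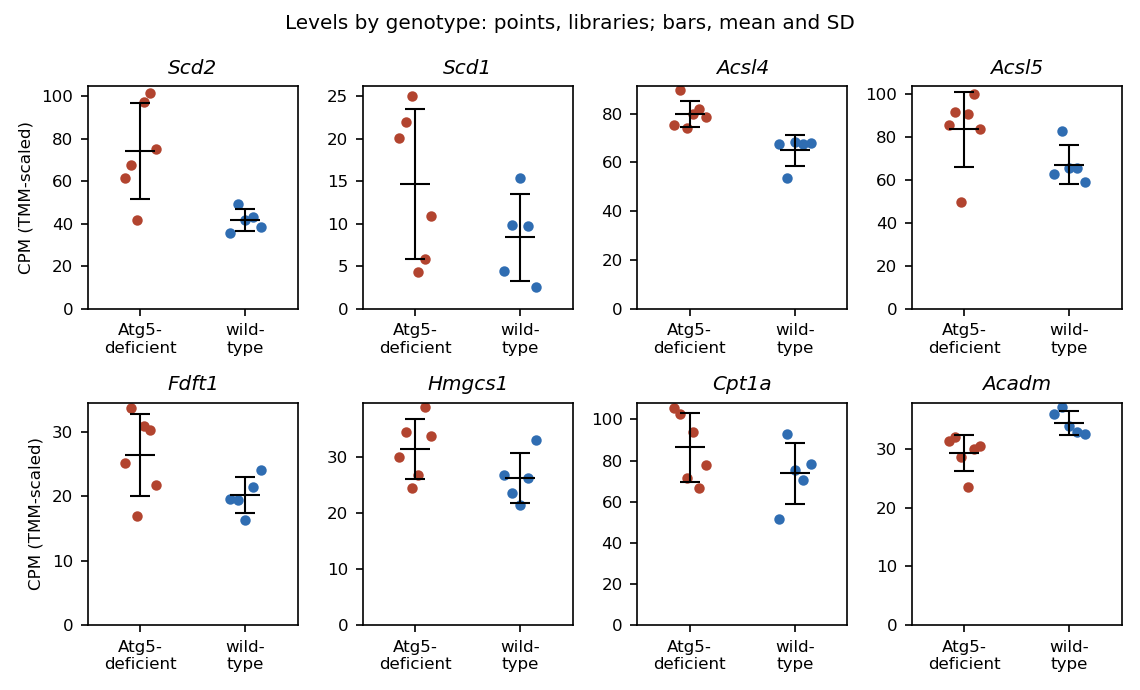
CPM of 8 genes in each library (points), with the mean and SD of each genotype (bars), Atg5-deficient left of wild-type and axes from 0. Acsl4 and Acadm are the genes whose groups do not overlap, Acsl4 higher and Acadm lower in Atg5-deficient libraries; a single Atg5-deficient library sits low for Scd2 and Acsl5.

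In fatty acid oxidation 0 of 7 genes passed in either direction, with log2 fold changes from -0.23 to 0.31 and a median of 0.04. Cpt1a, which gates the entry of acyl chains into mitochondria, had 105.5, 102.5, 71.5, 93.95, 66.5 and 78.1 CPM in Atg5-deficient libraries and 51.7, 92.8, 75.6, 70.3 and 78.4 CPM in wild-type ones. Its groups overlapped, with 3 of 6 Atg5-deficient libraries above every wild-type one (log2 fold change 0.23, interval -0.10 to 0.56). Cpt2, its partner on the inner membrane, had 6.94 ± 1.10 CPM in Atg5-deficient libraries and 6.74 ± 1.49 CPM in wild-type ones. The acyl-CoA dehydrogenases, which open the cycle for chains of different length, did not move as a group. Acadm (chromosome 3, 153922357 to 153944632, minus strand), for medium chains, had 31.3, 32.1, 28.6, 23.5, 30.1 and 30.6 CPM in Atg5-deficient libraries and 35.9, 37.3, 34.0, 32.9 and 32.5 CPM in wild-type ones. All 6 Atg5-deficient libraries lay below every wild-type one, alone among the 43 genes (2.33%) and against 2.08% of all genes, but the difference did not pass (log2 fold change -0.23, SE 0.09, interval -0.43 to -0.04, edgeR adjusted p = 0.138).

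Acadl, for long chains, had 57.2, 63.2, 34.8, 64.1, 59.7 and 46.7 CPM in Atg5-deficient libraries and 40.7, 46.2, 42.9, 41.8 and 47.9 CPM in wild-type ones. Of the Atg5-deficient libraries 4 of 6 lay above every wild-type one and replicate 3 below all of them (log2 fold change 0.31, SE 0.14, edgeR adjusted p = 0.188). Acadvl, for very long chains, had 47.5 ± 7.91 CPM in Atg5-deficient libraries and 46.3 ± 5.21 CPM in wild-type ones, and it shares 1151 exonic bases with Dvl2 on the other strand. The 2 subunits of the mitochondrial trifunctional protein, which completes the cycle for long chains, had unlike values. Hadha, the alpha subunit, had 118.1, 125.4, 97.1, 112.2, 130.2 and 107.0 CPM in Atg5-deficient libraries and 91.5, 109.5, 94.9, 96.9 and 94.0 CPM in wild-type ones (log2 fold change 0.24, SE 0.09, interval 0.06 to 0.42, edgeR adjusted p = 0.106). Hadhb, the beta subunit, had 33.7 ± 2.34 CPM against 34.8 ± 4.88 CPM (log2 fold change -0.05, interval -0.26 to 0.16). Without Atg5-deficient replicate 3, Acadl and Hadha passed with log2 fold changes of 0.41 and 0.28 (edgeR adjusted p = 0.0129 and 0.0296). Each was called in that 1 of 11 fits that left out a library, with edgeR adjusted p up to 0.333 and 0.220 in the others.

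Levels of different genes were compared per length, as CPM divided by the kilobases of merged exons (RPKM, mean over the 11 libraries). Acly was highest at 39.2, followed by Nr1h2 at 34.5, Elovl5 at 32.0, Srebf2 at 28.8 and Acadl at 24.7. The order depends on the length used. With the longest transcript as length, Nr1h2 was highest at 57.9, followed by Acly at 46.8, Srebf2 at 40.7 and Elovl5 at 40.5. The levels below again use merged exons. The 15 sterol synthesis genes were all low, from 1.23 for Lss to 6.33 for Hmgcs1, below the level of each of the genes for SREBP, SCAP and Insig1 (8.203 to 28.8). The remaining regulator, Insig2, stood at 2.77, within the range of the sterol synthesis genes. Oxidation genes ran from 2.86 for Cpt2 to 24.7 for Acadl. Fads2 was the lowest of all at 0.403, and Scd1 stood at 2.42 against 10.9 for Scd2. In Atg5-deficient libraries the level of Scd2 was 13.6 ± 4.12 RPKM and that of Scd1 3.01 ± 1.81 RPKM, and in wild-type libraries they were 7.61 ± 0.971 and 1.71 ± 1.04 RPKM. In the order by merged exons, 36 of 42 neighbouring pairs differed by less than the larger SD of the pair over the 11 libraries.

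**Figure D5:**
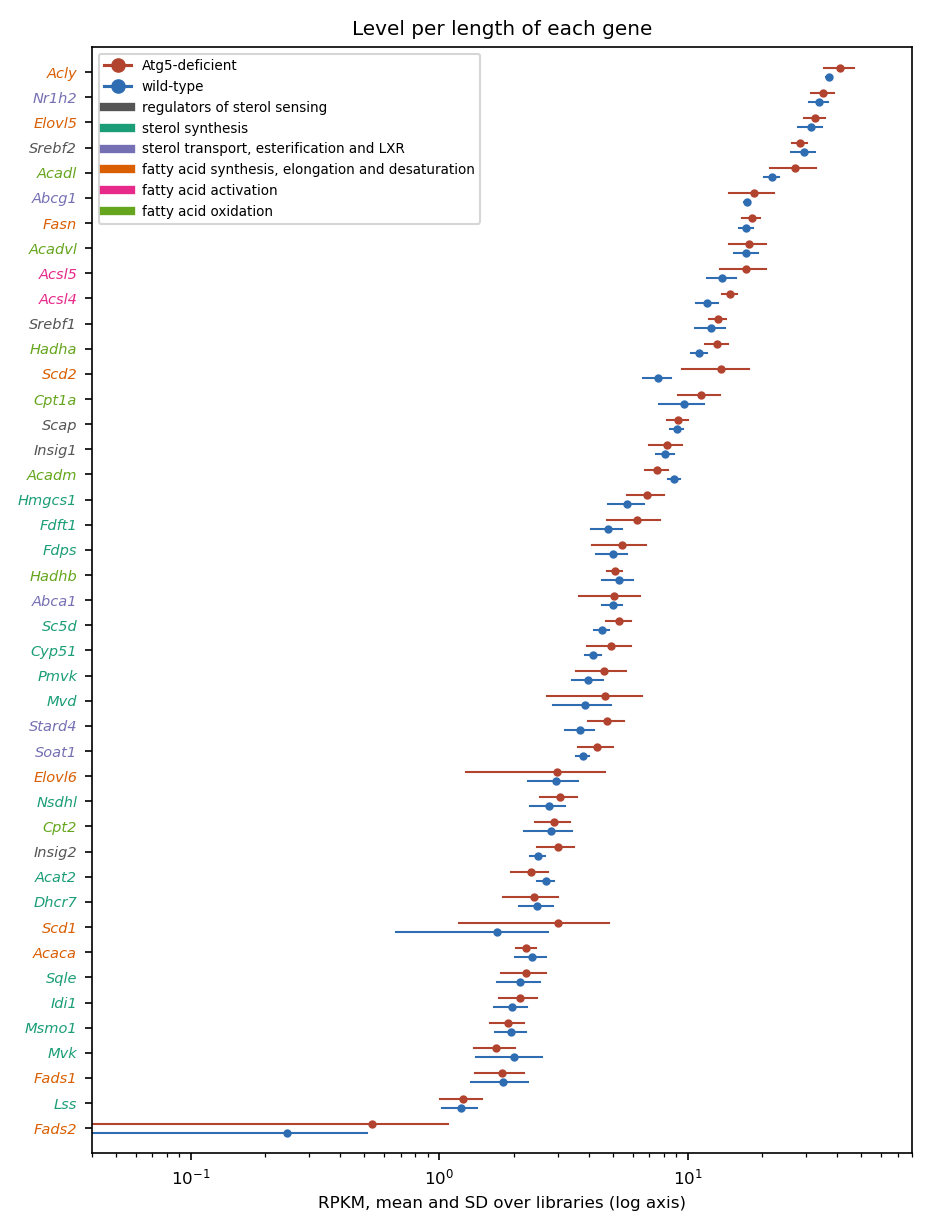
RPKM of each of the 43 genes (log axis), as mean and SD over 6 Atg5-deficient and 5 wild-type libraries, ordered by the mean of all 11 libraries, with gene names coloured by class. Sterol synthesis genes lie between 1.23 and 6.33 RPKM and Fads2 (0.403) is the lowest; bars that would pass the left edge are cut there.

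Further genes of the same routes, listed by name, gave few calls as well, to be read against the 4.43% higher and 2.41% lower among all genes. Of 18 tested genes of sterol synthesis and uptake outside the 43, 1 was higher and 1 lower (median log2 fold change -0.08). These were the paralogs Gramd1b and Gramd1a, which encode carriers of cholesterol from the plasma membrane to the endoplasmic reticulum. Gramd1b stood at 147.4 ± 23.5 CPM in Atg5-deficient libraries and 113.2 ± 9.68 CPM in wild-type ones (log2 fold change 0.38, edgeR adjusted p = 0.0486), and Gramd1a at 465.0 ± 92.1 CPM and 692.7 ± 155 CPM (log2 fold change -0.57, edgeR adjusted p = 0.0469). Each of these calls was kept in 3 of 11 fits that left out a library. Of 24 tested genes of fatty acid and lipid synthesis, 1 was higher and 1 lower (median 0.14). Acsl3, a long-chain acyl-CoA synthetase that works at lipid droplets, fell to 7.39 ± 1.78 CPM in Atg5-deficient libraries, against 13.2 ± 1.93 CPM in wild-type ones (log2 fold change -0.83, SE 0.17, edgeR adjusted p = 0.0120), in all 11 of those fits. Mid1ip1, which promotes polymerisation of acetyl-CoA carboxylase, was higher at 15.1 ± 3.80 against 9.69 ± 1.37 CPM (log2 fold change 0.64, edgeR adjusted p = 0.0441, kept in 2 of 11 fits). Of 32 tested genes of fatty acid oxidation, a list of enzymes that also includes receptors and other regulators, 1 was higher and 0 lower (median 0.04). The gene called was a receptor gene, and no enzyme gene of the list passed. This was Rxra, the retinoid X receptor with which LXR and PPAR receptors pair, at 39.2 ± 5.70 CPM in Atg5-deficient libraries and 23.6 ± 2.79 CPM in wild-type ones (log2 fold change 0.73, SE 0.12, edgeR adjusted p = 0.00421, kept in 11 of 11 fits).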

How the data were processed

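Raw counts of reads per Ensembl gene were deposited by the authors as whole numbers, with a column for each library. The submitters' processing notes name STAR, featureCounts and the build GRCm38. Versions, annotation release, strand setting and the treatment of multimapping reads are not stated in the sources at hand. The labels' protocol names a stranded total RNA kit. Of 56748 identifiers, 52125 (91.9%) matched GENCODE M21, which gave symbols, coordinates and exon lengths.

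Genes were kept with filterByExpr (minimum count 10, total 15), scaled with TMM factors and tested with edgeR 4.0.16 (robust quasi-likelihood F test, Benjamini-Hochberg over 17987 genes, threshold 0.05, R 4.3.3). CPM of genes are TMM-scaled, and summed markers use total counts. Log2 CPM used a prior count of 2. A count of 0 allows 3 reads, 0.0631 to 0.0977 CPM per library. Correlations and the marker sum used permutations (scipy 1.17.1). Alternatives included DESeq2 1.42.0 and limma 3.58.1. The test was checked on simulated counts. Replicates were numbered in accession order and pair nothing. Values in every library are given for called members and for a list of central genes fixed by name, extended by members called under an alternative. The members and lists were chosen with earlier results of these data known.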

Additional observations from a re-analysis of the deposited data

Results flagged for a closer look

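In 9 of 86 sets of values (43 genes in 2 genotypes, 10.5%), 1 library lay far from the rest of its genotype, judged by its gap over the range of the group. A chance rate of about 1 in 20 would hold for independent, normal values only. The genes share the same libraries, and no excess over that rate was tested. Among Atg5-deficient libraries, replicate 3 was low for Sqle at 7.48 CPM (12.2 to 14.4 CPM in the others) and for Acsl5 at 49.4 CPM (83.7 to 99.8 CPM), and high for Elovl6 at 40.8 CPM (11.2 to 18.4 CPM). Replicate 5 was high for Fdps at 33.6 CPM (17.7 to 23.6 CPM), and replicate 1 for Fads1 at 12.2 CPM (6.89 to 8.74 CPM). Among wild-type libraries, replicate 2 was low for Acsl4 at 53.5 CPM (67.4 to 68.4 CPM) and high for Acsl5 at 82.4 CPM (58.99 to 65.6 CPM). Replicate 4 was low for Insig2 at 7.56 CPM (8.69 to 9.09 CPM), and replicate 5 was high for Stard4 at 25.4 CPM (18.6 to 20.1 CPM).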

How the results depend on the processing

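No paired analysis was possible because the labels give no replicate numbers that the genotypes share. Of 43 members, 2 were called higher (all genes 4.43%). It was 1 with upper-quartile factors (all genes 3.25%), 6 with limma-voom (10.9%), 0 with no low-count filter (1.88%), 0 with the cell cycle covariate (1.95%), 0 in the 8 libraries whose titles run in sequence (0.462%), and 0 to 6 without single libraries (2.18% to 7.96%). Counts of 0 beside such small shares say little about the members. Members called lower were 0, and 1 (Dhcr7) with the cell cycle covariate (all genes 0.984%). Of sterol synthesis genes, 1 was called higher with limma-voom and 0 to 1 without single libraries; of oxidation genes, 2 with limma-voom and 0 to 2; of fatty acid synthesis genes, 0 with no filter, the cell cycle covariate or the 8 libraries, and 0 to 1 without single libraries. The other alternatives (relative log expression factors, DESeq2, a strict filter, totals taken without hepatocyte, haemoglobin and mitochondrial genes, the hepatocyte covariate) kept these counts. Log2 fold changes changed sign with the cell cycle covariate for Srebf1 (-0.081), Hmgcs1 (-0.13), Fdft1 (-0.16), Sqle (-0.61), Abcg1 (-0.24), Fasn (-0.00063), Acsl5 (-0.32), Cpt1a (-0.022), Acadl (-0.20) and Hadha (-0.0081). They did so for Insig1 and Abca1 with upper-quartile factors (-0.045 and -0.051), limma-voom (-0.012 and -0.17) and the hepatocyte covariate (-0.024 and -0.042), for Dhcr7 with limma-voom (0.024) and the hepatocyte covariate (0.023), and in the 8 libraries for Dhcr7 (0.021), Abca1 (-0.092) and Acaca (0.046). Without single libraries the ranges that crossed 0 were -0.11 to 0.00047 for Srebf2, -0.039 to 0.080 for Insig1, -0.026 to 0.18 for Sqle, -0.13 to 0.073 for Dhcr7 and -0.0904 to 0.11 for Abca1. The hepatocyte marker difference stayed at 152.3 to 352.3 CPM (254.6 CPM with all libraries). Lengths of the longest transcript gave RPKM 1 to 2.17 times as high (rank correlation 0.967 over the 43 genes), and 13 of 21 levels moved by over 1 SD. Of the 22 members given without a value for every library, 18 changed sign under at least 1 of 21 alternatives and 0 were called. The cell cycle covariate moves with genotype, so its fit cannot separate genotype from the cell cycle genes. The causes were not tested.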
